A study of Arabidopsis thaliana with 12 samples.

Results

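The aquaporin family of Arabidopsis thaliana was followed through 48 h of chilling in seedlings that overexpress RDM4 and in wild-type seedlings. Its members were the 35 loci of the PIP1, PIP2, TIP, NIP and SIP subfamilies, taken by locus code among the 25383 loci that carry a probe on the array. All 35 loci had at least 1 probe, 80 probes in all, and 33 loci passed the filter on dim probes and were tested among 20806 genes. The family divides into 5 PIP1, 8 PIP2, 10 TIP, 9 NIP and 3 SIP loci. Names are written in the hyphenated form of protein databases, so that PIP2-1 is the gene that the Arabidopsis literature also writes with a semicolon between the numerals.

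Aquaporins are membrane channels that let water, and in some members small neutral solutes, pass down a gradient. PIP proteins sit in the plasma membrane, where PIP2 members are efficient water channels and PIP1 members often need a PIP2 partner to reach the cell surface. TIP proteins sit in the vacuolar membrane, NIP proteins carry solutes such as boric acid and metalloids, and SIP proteins are found in the endoplasmic reticulum. In leaves, PIP and TIP channels set how readily water moves between the veins, the mesophyll cells and their vacuoles.

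The 6 groups were 35S::RDM4 overexpressors at 0, 3 and 48 h at 4 °C, and Col wild type at the same times, with 2 biological replicates each. RDM4 is a nuclear protein that associates with RNA polymerases, and the 35S promoter that drives it is active in most plant tissues. Seedlings were 2 weeks old, had grown on MS plates at 23 °C by day and 18 °C by night with 16 h of light, and at least 30 of them per plate gave the leaf RNA of a sample. The labels speak of overexpression lines in the plural, and whether more than 1 line entered these samples is not given in the sources used here, nor is whether replicates came from separate plates, so the p-values measure the spread between these samples. No arrays of unchilled seedlings at 3 or 48 h were analysed here, so chilling and time of day cannot be told apart at 3 h, nor chilling and seedling age at 48 h. The hour of sampling is not given in the sources used here.

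RDM4 relative signal was 43.6 to 69.0 on the 6 overexpressor arrays and 1.07 to 1.5 on the 6 wild-type arrays, as labelled. Relative signal is the processed Cy3 intensity of a probe divided by the 75th percentile of its array, and for single genes it is compared within a probe and never between probes. The summed signal of a marker list adds different probes, so it follows the brightest members most. Between 73.1% and 76.5% of probes were well above background on an array, 0 spots were saturated, and replicate arrays correlated at 0.9956 to 0.9970 over genes. The RNA was labelled as leaf, and all 5 leaf markers were above background on every array. All 9 root markers, among them CASP1, MYB36, COBL9 and EXPA7, were also above background on every array, as were the 6 xylem and phloem and the 4 guard cell markers. Of 4 seed markers, OLEO1 and CRA1 were above background on 12 arrays, PAP85 on 8 and SESA1 on 0, and none of the 3 pollen markers present on the array was above background in any group.

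After 48 h at 4 °C, most aquaporin transcripts were lower in both genotypes. Of the 33 tested, 22 fell and 8 rose in overexpressors, and 22 fell and 9 rose in wild type, by limma with adjusted p below 0.05. The 30 that passed in overexpressors and the 31 in wild type compare with 79.5% of all genes that passed in overexpressors and 78.7% in wild type. Over all genes, 38.8% fell and 40.7% rose in overexpressors, and 39.1% fell and 39.7% rose in wild type. The median log2 change of the tested aquaporins was -0.74 in overexpressors and -0.69 in wild type, whereas that of all genes was 0.01 in overexpressors and -0.00 in wild type. By group means, at least a halving was seen for 16 aquaporins in overexpressors and 14 in wild type, and a doubling for 2 in each genotype. The shares of all genes halved or doubled are not given here, so such counts only describe the members. The 16 count NIP2-1, whose fall in overexpressors is bounded at only 1.72-fold. They also count TIP3-2, whose overexpressor arrays at 0 h and 48 h were not above background. Of the 33, 21 fell in both genotypes and 7 rose in both, which describes the members only, because the matching share of all genes is not given here. TIP1-3, TIP3-2, NIP2-1 and NIP4-2 were above background in some groups only, so the filter that let them in also bore on their direction. Among the 29 members above background on all 12 arrays, a set chosen after the data were seen, 19 fell and 8 rose in overexpressors, and 19 fell and 9 rose in wild type, with medians of -0.58 in overexpressors and -0.64 in wild type. Of these 29, at least a halving was seen for 13 in overexpressors and 12 in wild type, and a doubling for 2 in each. These counts, too, only describe the members. In both genotypes 19 of them fell and 7 rose. In bulk RNA, fewer cells of a type and less RNA per cell cannot be told apart.

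Most of the falls were those of TIP and PIP genes. In the TIP subfamily 7 of 9 tested members fell at 48 h in overexpressors and 8 of 9 in wild type, with medians of -1.42 in overexpressors and -1.92 in wild type on the log2 scale. Among the 7 TIP genes above background on all arrays, 6 fell in each genotype, with medians of -1.90 in overexpressors and -1.80 in wild type. In the PIP1 subfamily 4 of 5 fell in each genotype, with medians of -1.18 in overexpressors and -1.03 in wild type. In the PIP2 subfamily 6 of 8 fell in each genotype, with medians of -0.48 in overexpressors and -0.57 in wild type. The NIP subfamily was split, with 4 of 8 higher and 4 lower in overexpressors, and 4 higher and 3 lower in wild type. Those that fell include dim members, NIP4-2 in both genotypes and NIP2-1 in overexpressors. Among the 6 NIP genes above background on all arrays, 4 rose and 2 fell in each genotype, with medians of 0.30 in overexpressors and 0.28 in wild type. Of the 3 SIP genes, 1 fell in each genotype, 2 rose in overexpressors and 1 rose in wild type. These are counts and medians of small groups of related genes, and no test between subfamilies was made.

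**Figure D1:**
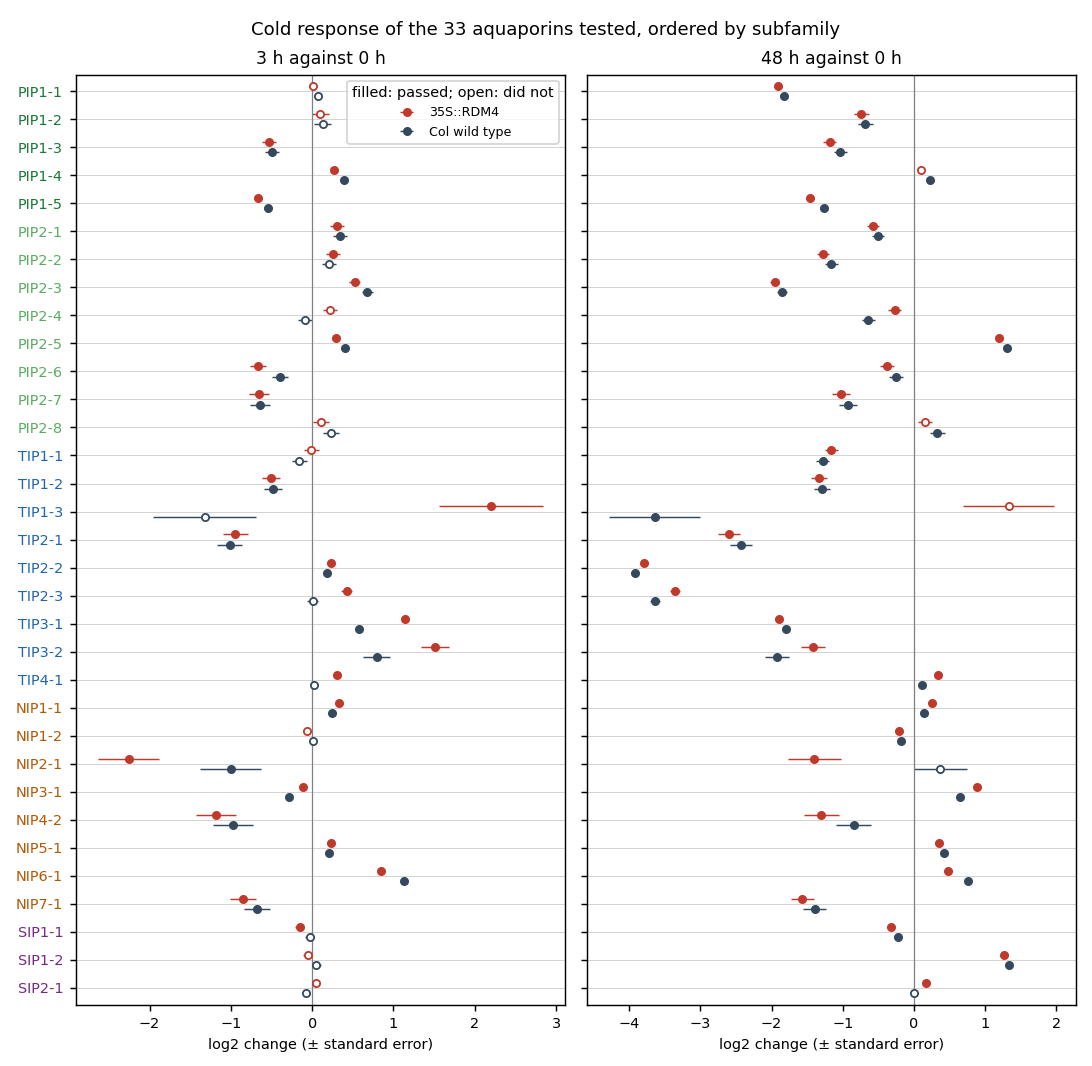
Log2 change (± standard error) of the 33 tested aquaporins at 3 h (left) and 48 h (right) against 0 h, with 35S::RDM4 overexpressors drawn above wild type within each gene and gene names coloured by subfamily. Filled points passed limma's test, and at 48 h 22 of the 33 lie below 0 as filled points in each genotype.

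The largest falls at 48 h among members measured on every array belonged to the TIP2 genes, which encode vacuolar channels for water and ammonia. TIP2-2 (AT4G17340) had relative signals of 12.8 and 12.6 at 0 h, 15.5 and 14.5 at 3 h, and 0.925 and 0.901 at 48 h in overexpressors. In wild type TIP2-2 had 13.3 and 13.3 at 0 h, 15.1 and 15.2 at 3 h, and 0.851 and 0.904 at 48 h. Both genotypes thus kept TIP2-2 at or above its starting level at 3 h and held little of it at 48 h, with no overlap between the groups. The 48 h change was -3.80 ± 0.04 in overexpressors, 13.9-fold lower than at 0 h (limma adjusted p = 2.28e-10), and -3.92 ± 0.04 in wild type, 15.1-fold lower (limma adjusted p = 2.12e-10), as log2 ± SE. Among all 20806 genes, 41 had a change at least as low in overexpressors and 48 in wild type, TIP2-2 included.

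TIP2-3 (AT5G47450), its close relative, had relative signals of 1.38 and 1.5 at 0 h, 1.91 and 1.95 at 3 h, and 0.145 and 0.136 at 48 h in overexpressors. In wild type TIP2-3 had 1.52 and 1.47 at 0 h, 1.54 and 1.48 at 3 h, and 0.128 and 0.113 at 48 h. The 48 h change of TIP2-3 was -3.35 ± 0.07 in overexpressors and -3.64 ± 0.07 in wild type. TIP2-1 (AT3G16240), also known as delta-TIP, already fell at 3 h. Its relative signals were 99.8 and 87.3 at 0 h, 50.8 and 46.1 at 3 h, and 15.6 and 15.1 at 48 h in overexpressors. In wild type TIP2-1 had 114 and 80.1 at 0 h, 51.2 and 43.9 at 3 h, and 17.5 and 17.9 at 48 h. Its log2 change was -0.95 ± 0.15 at 3 h and -2.60 ± 0.15 at 48 h in overexpressors, and -1.01 ± 0.15 at 3 h and -2.44 ± 0.15 at 48 h in wild type.

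The TIP2 genes are also expressed in roots, so the root marker list is given beside them. Of the 9 root markers, 7 rose at 48 h in each genotype, led by the iron uptake genes IRT1 and FRO2, while 1 fell in overexpressors and 2 in wild type. CASP1, a marker of the root endodermis, changed by -0.20 in overexpressors and -0.46 in wild type. The summed relative signal of the root list in overexpressors was 16.8 to 17.4 at 48 h and 9.42 to 9.63 at 0 h. In wild type the sum was 13.4 on both arrays at 48 h and 10.5 to 11 at 0 h. Most of the wild-type rise lay in IRT1 and FRO2. On the wild-type arrays IRT1 stood at 0.0798 to 0.0802 at 0 h and 1.66 to 1.75 at 48 h. FRO2 stood there at 0.0972 to 0.105 at 0 h and 1.197 to 1.226 at 48 h. The sum thus does not show that root RNA as a whole rose. Of the 6 xylem and phloem markers, 5 fell and 1 rose at 48 h in each genotype, with medians of -0.86 in overexpressors and -0.71 in wild type. Their part in the aquaporin changes was not tested.

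**Figure D2:**
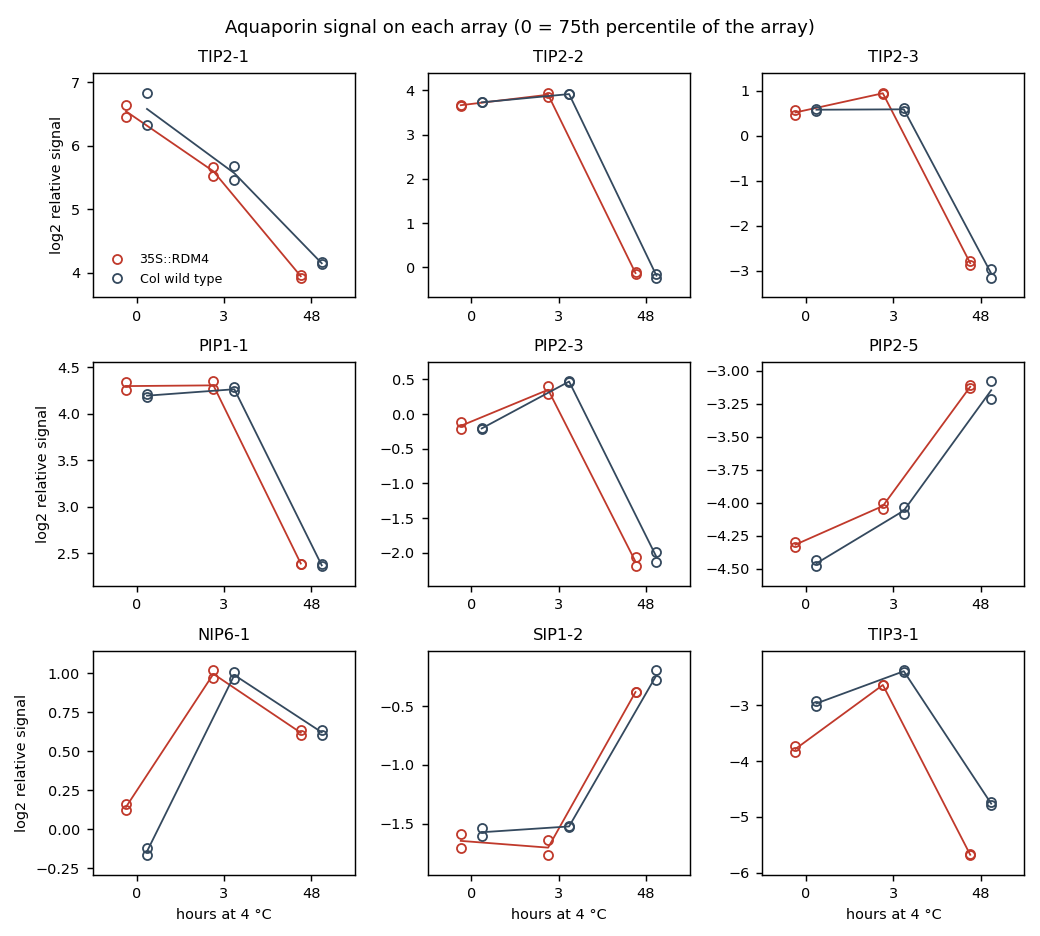
Log2 relative signal (0 is the 75th percentile of the array) of 9 aquaporins on each of the 12 arrays against hours at 4 °C, with overexpressors left and wild type right within each time, circles for arrays and lines through group means. TIP2-2, TIP2-3, PIP1-1 and PIP2-3 stay near their 0 h level or above it at 3 h and drop at 48 h, TIP2-1 drops at both times, and PIP2-5 and SIP1-2 end above their 0 h level.

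Other vacuolar channels fell by smaller amounts. TIP1-1 and TIP1-2, which encode abundant vacuolar channels for water and hydrogen peroxide, changed at 48 h by -1.16 ± 0.09 and -1.34 ± 0.11 in overexpressors, and by -1.28 ± 0.09 and -1.29 ± 0.11 in wild type. TIP1-2 had already fallen at 3 h, with changes of -0.50 in overexpressors and -0.48 in wild type, while TIP1-1 did not pass at 3 h in either genotype. TIP4-1, a vacuolar urea and water channel known mainly from roots, was the TIP gene that rose at 48 h in both genotypes. Its change was 0.33 ± 0.05 in overexpressors and 0.12 ± 0.05 in wild type, and the wild-type call was lost when either replicate of wild type at 0 h or 48 h was left out.

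TIP3-1 and TIP3-2, vacuolar channels of seed storage vacuoles, rose at 3 h and fell at 48 h. In overexpressors TIP3-2 was above background at 3 h only, so its 48 h fall against 0 h there compares signals at background. TIP3-1 (AT1G73190) had relative signals of 0.0757 and 0.0701 at 0 h, 0.161 and 0.161 at 3 h, and 0.0194 and 0.0196 at 48 h in overexpressors. In wild type TIP3-1 had 0.125 and 0.132 at 0 h, 0.189 and 0.194 at 3 h, and 0.0377 and 0.0361 at 48 h. Its log2 change at 3 h was 1.15 ± 0.05 in overexpressors and 0.58 ± 0.05 in wild type, and at 48 h it was -1.90 ± 0.05 in overexpressors and -1.80 ± 0.05 in wild type. All 3 seed markers tested fell at 48 h in both genotypes. At 3 h 2 of the 3 rose and 1 fell in overexpressors, and 1 rose and 1 fell in wild type. At that time CRA1 changed by 1.69 in overexpressors and 0.36 in wild type, and PAP85 by -2.62 in overexpressors and -2.92 in wild type. The summed relative signal of the 4 seed markers on the array was 0.389 to 0.443 at 0 h, 0.921 to 0.964 at 3 h and 0.229 to 0.240 at 48 h in overexpressors, and 0.804 to 0.807 at 0 h, 0.882 to 0.892 at 3 h and 0.244 to 0.247 at 48 h in wild type. The part of remaining seed RNA in the TIP3 values was not tested.

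Among the PIP1 genes, PIP1-1 fell most. PIP1-1 (AT3G61430) had relative signals of 20.3 and 19.1 at 0 h, 19.2 and 20.4 at 3 h, and 5.23 and 5.23 at 48 h in overexpressors. In wild type PIP1-1 had 18.5 and 18.2 at 0 h, 19.5 and 19.0 at 3 h, and 5.20 and 5.13 at 48 h. The 48 h change was -1.91 ± 0.04 in overexpressors and -1.83 ± 0.04 in wild type, while the 3 h change, 0.01 in overexpressors and 0.07 in wild type, did not pass. PIP1-3 and PIP1-5 fell at both times. PIP1-3 changed by -0.53 ± 0.09 at 3 h and -1.18 ± 0.09 at 48 h in overexpressors, and by -0.50 ± 0.09 at 3 h and -1.03 ± 0.09 at 48 h in wild type. PIP1-5 changed by -0.67 ± 0.05 at 3 h and -1.46 ± 0.05 at 48 h in overexpressors, and by -0.54 ± 0.05 at 3 h and -1.27 ± 0.05 at 48 h in wild type. PIP1-2, a plasma membrane channel also linked to carbon dioxide uptake, changed by -0.74 ± 0.11 in overexpressors and -0.69 ± 0.11 in wild type at 48 h. By the brightest probe of each gene, PIP1-4 was the PIP1 gene that passed as higher at 3 h, by 0.27 in overexpressors and 0.39 in wild type, and at 48 h it passed in wild type (0.22 ± 0.04) and not in overexpressors (0.10 ± 0.04).

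Within the PIP2 subfamily, PIP2-3 fell and PIP2-5 rose. PIP2-3 (AT2G37180) had relative signals of 0.921 and 0.857 at 0 h, 1.32 and 1.23 at 3 h, and 0.218 and 0.240 at 48 h in overexpressors. In wild type PIP2-3 had 0.870 and 0.863 at 0 h, 1.39 and 1.38 at 3 h, and 0.251 and 0.229 at 48 h. All 4 arrays at 3 h lay above those at 0 h, and all 4 at 48 h lay below them. The log2 change of PIP2-3 was 0.52 ± 0.07 at 3 h and -1.96 ± 0.07 at 48 h in overexpressors, and 0.68 ± 0.07 at 3 h and -1.85 ± 0.07 at 48 h in wild type. PIP2-2, a near-identical neighbour of PIP2-3 that contributes to root water uptake, changed at 48 h by -1.28 ± 0.09 in overexpressors and -1.16 ± 0.09 in wild type. Cross-hybridization between them could not be checked, because probe sequences were not used here, so the split between this pair is uncertain.

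PIP2-5 (AT3G54820), another plasma membrane water channel, ran the other way. Its relative signals were 0.0508 and 0.0496 at 0 h, 0.0605 and 0.0625 at 3 h, and 0.116 and 0.114 at 48 h in overexpressors. In wild type PIP2-5 had 0.0462 and 0.0448 at 0 h, 0.0589 and 0.0611 at 3 h, and 0.108 and 0.118 at 48 h. Its 48 h change was 1.19 ± 0.05 in overexpressors (limma adjusted p = 7.82e-08) and 1.31 ± 0.05 in wild type (limma adjusted p = 4.84e-08). The smaller 3 h rise, 0.29 in overexpressors and 0.40 in wild type, did not pass after normexp background correction. PIP2-1, a major leaf channel that also acts in guard cells, changed by -0.58 ± 0.09 in overexpressors and -0.51 ± 0.09 in wild type at 48 h, after 0.30 in overexpressors and 0.34 in wild type at 3 h. The 3 h call of PIP2-1 was lost when overexpressor replicate 2 at 0 h or 1 at 3 h was left out, and likewise for wild-type replicate 2 at 0 h or 1 at 3 h. PIP2-7 fell at both times. Its changes were -0.65 ± 0.12 at 3 h and -1.03 ± 0.12 at 48 h in overexpressors, and -0.64 ± 0.12 at 3 h and -0.93 ± 0.12 at 48 h in wild type.

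The remaining PIP2 genes changed less. PIP2-4 changed at 48 h by -0.27 ± 0.09 in overexpressors and -0.64 ± 0.09 in wild type, and the overexpressor call was lost when replicate 1 at 0 h or either replicate at 48 h was left out. PIP2-6 fell at 3 h, with changes of -0.67 ± 0.10 in overexpressors and -0.40 ± 0.10 in wild type. Its 48 h changes were -0.38 ± 0.10 in overexpressors and -0.25 ± 0.10 in wild type. The wild-type 48 h value of PIP2-6 passed with an adjusted p of 0.0448 in limma and was lost under most alternatives. PIP2-8 did not pass at 48 h in overexpressors (0.15 ± 0.10) and passed in wild type (0.33 ± 0.10), where the call was lost without replicate 2 at 0 h or replicate 1 at 48 h.

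Most of the rises at 48 h lay outside the PIP and TIP subfamilies. SIP1-2 (AT5G18290), an endoplasmic reticulum channel, had relative signals of 0.307 and 0.332 at 0 h, 0.320 and 0.293 at 3 h, and 0.769 and 0.771 at 48 h in overexpressors. In wild type SIP1-2 had 0.328 and 0.344 at 0 h, 0.346 and 0.349 at 3 h, and 0.825 and 0.876 at 48 h. It changed by 1.27 ± 0.06 in overexpressors and 1.34 ± 0.06 in wild type at 48 h, and at 3 h by -0.06 in overexpressors and 0.05 in wild type, neither of which passed. The other SIP genes changed little. SIP1-1 had -0.33 ± 0.05 in overexpressors and -0.23 ± 0.05 in wild type at 48 h, and SIP2-1 had 0.17 ± 0.04 in overexpressors and 0.00 ± 0.04 in wild type, of which the wild-type value did not pass.

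NIP5-1 and NIP6-1, which carry boric acid, rose at both times. NIP6-1 (AT1G80760), which directs boric acid to young shoot tissue, had relative signals of 1.12 and 1.09 at 0 h, 2.03 and 1.96 at 3 h, and 1.55 and 1.52 at 48 h in overexpressors. In wild type NIP6-1 had 0.922 and 0.892 at 0 h, 2.01 and 1.95 at 3 h, and 1.56 and 1.52 at 48 h. The highest values were those at 3 h in both genotypes, and the 0 h arrays of overexpressors lay above those of wild type. NIP5-1, the main boric acid importer of roots, changed by 0.24 ± 0.04 at 3 h and 0.35 ± 0.04 at 48 h in overexpressors, and by 0.21 ± 0.04 at 3 h and 0.42 ± 0.04 at 48 h in wild type. NIP1-1, a channel through which arsenite can pass, rose at 48 h by 0.26 ± 0.04 in overexpressors and 0.14 ± 0.04 in wild type, and the wild-type call was lost without replicate 1 at 0 h or replicate 2 at 48 h. NIP1-2 changed by -0.21 ± 0.03 in overexpressors and -0.18 ± 0.03 in wild type. NIP7-1, a boric acid channel known from anthers, instead changed by -1.57 ± 0.16 in overexpressors and -1.39 ± 0.16 in wild type at 48 h. NIP3-1 fell at 3 h, with changes of -0.12 ± 0.03 in overexpressors and -0.28 ± 0.03 in wild type, and rose at 48 h, with 0.89 ± 0.03 in overexpressors and 0.65 ± 0.03 in wild type. Its relative signals were low, at 0.0208 to 0.0432 in overexpressors and 0.0200 to 0.0387 in wild type, and its calls at both times were lost after normexp correction.

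At 3 h the family had no common direction. In overexpressors 25 of the 33 passed and in wild type 20, against 70% of all genes in overexpressors and 68.1% in wild type. In overexpressors 14 aquaporins rose and 11 fell, and in wild type 10 rose and 10 fell, against 32.9% and 37.1% of all genes in overexpressors and 30.8% and 37.3% in wild type. The same 10 genes rose in both genotypes, and another 10 fell in both. The share of all genes that passed the same way in both genotypes is not given here, so these counts only describe the members. The 10 that rose were PIP1-4, PIP2-1, PIP2-3, PIP2-5, TIP2-2, TIP3-1, TIP3-2, NIP1-1, NIP5-1 and NIP6-1. The 10 that fell were PIP1-3, PIP1-5, PIP2-6, PIP2-7, TIP1-2, TIP2-1, NIP2-1, NIP3-1, NIP4-2 and NIP7-1. NIP2-1 was above background on no wild-type array, so its wild-type calls compare signals at background. Among the 29 members above background on all arrays, 12 rose and 9 fell in overexpressors, 9 rose and 8 fell in wild type, and 9 rose and 8 fell in both. Medians of the subfamilies at 3 h ran from -0.09 for NIP to 0.31 for TIP in overexpressors and from -0.13 for NIP to 0.22 for PIP2 in wild type. This order rests on dim members. Among members above background on all arrays, medians ran from -0.06 for SIP to 0.24 for PIP2 and TIP in overexpressors. In wild type they ran from -0.03 for SIP to 0.22 for PIP2, and NIP had 0.09 in overexpressors and 0.11 in wild type.

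A rise at 3 h was followed by a fall below the starting level at 48 h for 7 aquaporins in overexpressors and 5 in wild type. PIP2-1, PIP2-3, TIP2-2, TIP3-1 and TIP3-2 did so in both genotypes. For TIP3-2 in overexpressors, the fall below the starting level compares signals at background. PIP2-2 and TIP2-3 passed this way in overexpressors, while in wild type their 3 h changes of 0.21 and 0.01 did not pass. A fall at both times was seen for 10 aquaporins in overexpressors and 8 in wild type, and a rise at both times for 5 in each. The 10 include NIP2-1, whose direction was fixed by the filter, and both counts of falls include the dim NIP4-2, whose falls the filter favoured. Among members above background on all arrays, 8 fell at both times in overexpressors and 7 in wild type. In that set, 5 rose at both times in each genotype, and 6 in overexpressors and 4 in wild type rose and then fell. The matching shares of all genes are not given here, so these counts only describe the members. NIP3-1 alone was lower at 3 h and higher at 48 h, in both genotypes.

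Between 3 h and 48 h most aquaporins fell. In overexpressors 27 of the 33 passed and in wild type 26, against 75.8% of all genes in overexpressors and 76.1% in wild type. In overexpressors 21 aquaporins fell and 6 rose, against 35.1% and 40.6% of all genes, and in wild type 21 fell and 5 rose, against 35% and 41%. Among the 29 members above background on all arrays, 20 fell and 6 rose in overexpressors, and 19 fell and 4 rose in wild type. All 5 PIP1 genes were lower at 48 h than at 3 h in both genotypes. The largest changes were those of TIP2-2, -4.03 ± 0.04 in overexpressors and -4.11 ± 0.04 in wild type, followed by TIP2-3 with -3.78 ± 0.07 in overexpressors and -3.65 ± 0.07 in wild type. TIP3-1 changed by -3.05 ± 0.05 in overexpressors and -2.38 ± 0.05 in wild type, and PIP2-3 by -2.48 ± 0.07 in overexpressors and -2.53 ± 0.07 in wild type. SIP1-2 rose by 1.33 in overexpressors and 1.29 in wild type, NIP3-1 by 1.01 in overexpressors and 0.93 in wild type, and PIP2-5 by 0.90 in overexpressors and 0.91 in wild type. The 48 h against 3 h comparison uses the same arrays as the comparisons with 0 h.

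Several members were near background. TIP5-1, known from pollen, was above background on 3 arrays, with relative signals of 0.00283 to 0.0113, and NIP4-1 on 0 arrays, with 0.00120 to 0.00211, so neither was tested. TIP1-3, a pollen vacuolar channel, was above background on 4 arrays. Its relative signals were 0.00135 and 0.00173 at 0 h, 0.00784 and 0.00629 at 3 h, and 0.00821 and 0.00180 at 48 h in overexpressors, and 0.0116 and 0.0269 at 0 h, 0.00658 and 0.00760 at 3 h, and 0.00148 and 0.00135 at 48 h in wild type. In wild type it was at least 2.63-fold lower at 48 h than at 0 h. Such bounds set the bright group against the higher, on each dim array, of its own signal and the lowest signal that counts as above background. Where its own signal was the higher on both arrays, the fold is that of the group means and not a lower limit. TIP1-3 entered the test through its wild-type 0 h arrays alone and NIP2-1 through its overexpressor 0 h arrays alone, so the filter fixed the direction against those groups, and their bounds are a description with no test. TIP3-2 was 2.85-fold higher at 3 h than at 0 h in overexpressors by group means, with its 0 h arrays not above background. It was at least 2.40-fold lower at 48 h than at 0 h in wild type. NIP2-1, above background on both 0 h arrays of overexpressors and on no other, was at least 2.12-fold lower at 3 h and at least 1.72-fold lower at 48 h than at 0 h in overexpressors. NIP4-2, known from pollen, was 2.47-fold lower at 48 h than at 0 h in overexpressors by group means, with its 48 h arrays not above background. It was above background on 7 arrays in all, and on both arrays of a group only at 0 h, in each genotype. NIP4-2 thus entered the test through its 0 h arrays alone, so the filter favoured its falls at 3 h and 48 h.

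Fewer aquaporins passed between the genotypes than between the times. Of the 33, 7 passed at 0 h (21.2%), 2 at 3 h (6.06%) and 1 at 48 h (3.03%), against 12.9%, 4.94% and 3.73% of all genes. At 0 h 3 were higher and 4 lower in overexpressors than in wild type, against 4.78% and 8.12% of all genes. At 3 h 1 was higher and 1 lower, against 2.27% and 2.67%, and at 48 h 0 were higher and 1 lower, against 2.6% and 1.14%. At an unadjusted p below 0.05, limma passed 15 of the 33 at 0 h, 6 at 3 h and 7 at 48 h. The shares of all genes at that unadjusted threshold are not given here. The percentages above are at adjusted p, so this and later unadjusted counts only describe the members. Among the 29 members above background on all arrays, 4 passed at 0 h, 2 higher and 2 lower, 2 at 3 h and 1 at 48 h. None of the 13 PIP genes passed at any time. Their differences lay between -0.27 and 0.17 at 0 h, between -0.23 and 0.22 at 3 h and between -0.28 and 0.10 at 48 h on the log2 scale, which does not show that the genotypes are alike.

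TIP3-1 was lower in overexpressors at all 3 times, with differences of -0.82 ± 0.05 at 0 h (limma adjusted p = 6.01e-05), -0.25 ± 0.05 at 3 h (limma adjusted p = 0.0342) and -0.92 ± 0.05 at 48 h (limma adjusted p = 3.78e-05). The 48 h call held in every alternative run, and within the 1 slide that held both genotypes at 48 h the difference was -0.89. Of the 3 seed markers tested, 1 was lower and 0 higher in overexpressors at 0 h, where CRA1 differed by -1.21. None passed at 3 h. At 48 h 1 was higher and 0 lower, with PAP85 at 0.45 and CRA1 at -0.05. Their part in the TIP3-1 differences was not tested. Also lower at 0 h were TIP4-1 (-0.29 ± 0.05), TIP3-2 (2.01-fold by group means, with overexpressors not above background) and TIP1-3 (at least 2.87-fold). Of the 9 root markers, 5 were lower in overexpressors at 0 h and none was higher, with the list at 9.42 to 9.63 in overexpressors and 10.5 to 11 in wild type, and their part in the TIP4-1 difference was not tested. Higher at 0 h were NIP6-1 (0.28 ± 0.04), NIP1-2 (0.18 ± 0.03) and NIP2-1 (at least 2.17-fold). The NIP2-1 difference was -0.13 after normexp correction, and the bounds of TIP1-3 and NIP2-1 are again fixed in direction by the filter. Leaving out overexpressor replicate 1 ended the 0 h calls of TIP1-3, TIP3-2, NIP1-2 and NIP2-1, leaving out wild-type replicate 2 those of TIP1-3 and NIP2-1, and leaving out wild-type replicate 1 those of NIP1-2 and NIP2-1. The NIP2-1 call was also lost without overexpressor replicate 2. At 3 h TIP2-3 was higher by 0.36 ± 0.07, and both 3 h calls were lost when any 1 of the 4 arrays compared was left out.

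At 0 h and 3 h, no slide held both genotypes. With slide as a block, which leaves 2 residual degrees of freedom, 0 of the 7 differences at 0 h and 0 of the 2 at 3 h passed in limma, while 9 and 6 aquaporins had an unadjusted p below 0.05. Within each scan day that held both groups, every aquaporin difference that passed kept its sign, and so did every cold response that passed. These within-day values come from the same arrays that gave the calls, so they are no separate test of scan day.

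**Figure D3:**
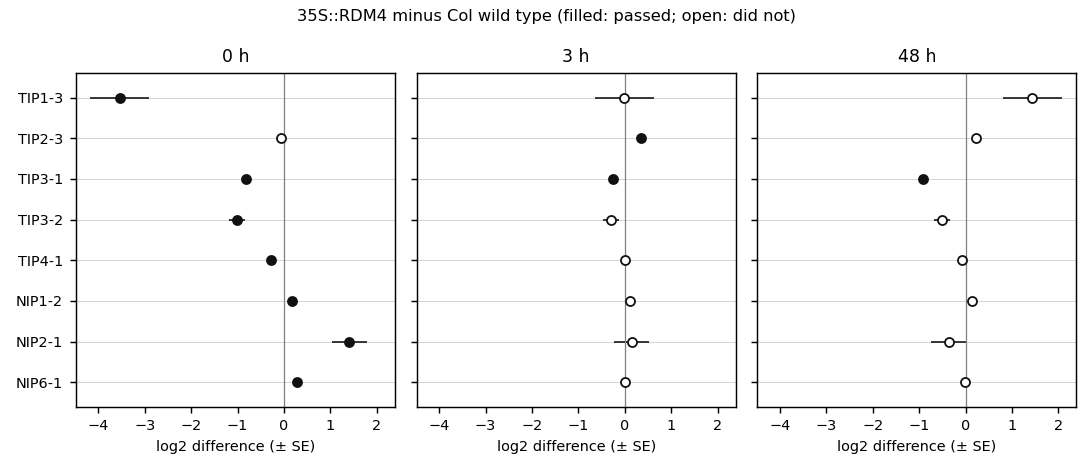
Log2 difference, 35S::RDM4 overexpressors minus wild type (± standard error), at 0, 3 and 48 h for the 8 aquaporins that passed at any time, with filled points for those that passed. TIP3-1 lies below 0 as a filled point at all 3 times, at -0.82, -0.25 and -0.92, and most of the others are filled at 0 h only.

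The difference between the cold responses of the genotypes was tested directly as an interaction. It passed for 4 of the 33 at 3 h and 3 at 48 h, against 7.36% and 5.45% of all genes. At 3 h it was positive for 3 aquaporins and negative for 1, against 4.77% and 2.59% of all genes, and at 48 h positive for 2 and negative for 1, against 4.52% and 0.928%. Without TIP1-3, which was above background in part of the arrays, 2 passed at 48 h, 1 positive and 1 negative. All of these comparisons use the 0 h arrays that also gave the genotype difference at 0 h. TIP3-1 (0.57 ± 0.07), TIP2-3 (0.42 ± 0.10) and TIP4-1 (0.29 ± 0.07) had the more positive 3 h response in overexpressors. NIP6-1 had the smaller rise in overexpressors, by -0.28 ± 0.05 at 3 h and -0.29 ± 0.05 at 48 h. Of the 9 root markers, 6 also had a more positive 3 h response in overexpressors and none a more negative one. That list stood at 12.9 to 13.0 at 3 h in overexpressors and 11.5 to 11.6 in wild type, and its part in the TIP2-3 and TIP4-1 values was not tested. Of the 3 seed markers tested, 1 had a more positive 3 h response in overexpressors and 0 a more negative one. It was CRA1, with a difference of 1.33, and its part in the TIP3-1 value was not tested. None of the 7 interactions passed in every alternative. The TIP3-1 interaction held with each array left out, while those of TIP2-3 and TIP4-1 were lost when any 1 of the 8 arrays compared was left out. Leaving out each of the 12 arrays in turn ended the 48 h interaction of NIP3-1 in 9 cases and that of TIP1-3 in 5. With each of the 12 arrays left out in turn, the NIP6-1 interaction was lost in 6 cases at 3 h (adjusted p of 0.0258 to 0.0798 in limma) and in 4 at 48 h (0.0293 to 0.0774).

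Several probes were present for 14 aquaporins, and the brightest stood for the gene. For the TIP2 genes all probes fell at 48 h and the brightest gave the smallest fall. The probes of TIP2-1 gave -3.66 to -2.60 in overexpressors and -3.25 to -2.44 in wild type, and those of TIP2-2 gave -4.10 to -3.80 in overexpressors and -4.19 to -3.92 in wild type. Between the wild-type replicates at 0 h the array 75th percentile had a ratio of 0.504, while the 8 members with a mean log2 relative signal above 4 had raw signal ratios of 0.581 to 0.720 and the other 21 members measured on every array had 0.449 to 0.579. Between these replicates the brightest probes thus followed the scale of the array less closely, and other replicate pairs were not compared in this way. The probes of PIP1-4 disagreed, with changes of -0.51 to 0.21 at 48 h and -0.01 to 1.88 at 3 h in overexpressors, and of -0.29 to 0.40 at 48 h and 0.07 to 2.01 at 3 h in wild type. The probes of PIP1-2 gave 0.09 to 0.63 at 3 h in overexpressors and 0.13 to 0.71 in wild type. Also, 1 of the probes of PIP1-3 had a positive value at 3 h (0.26 in wild type) where the others were negative.

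**Figure D4:**
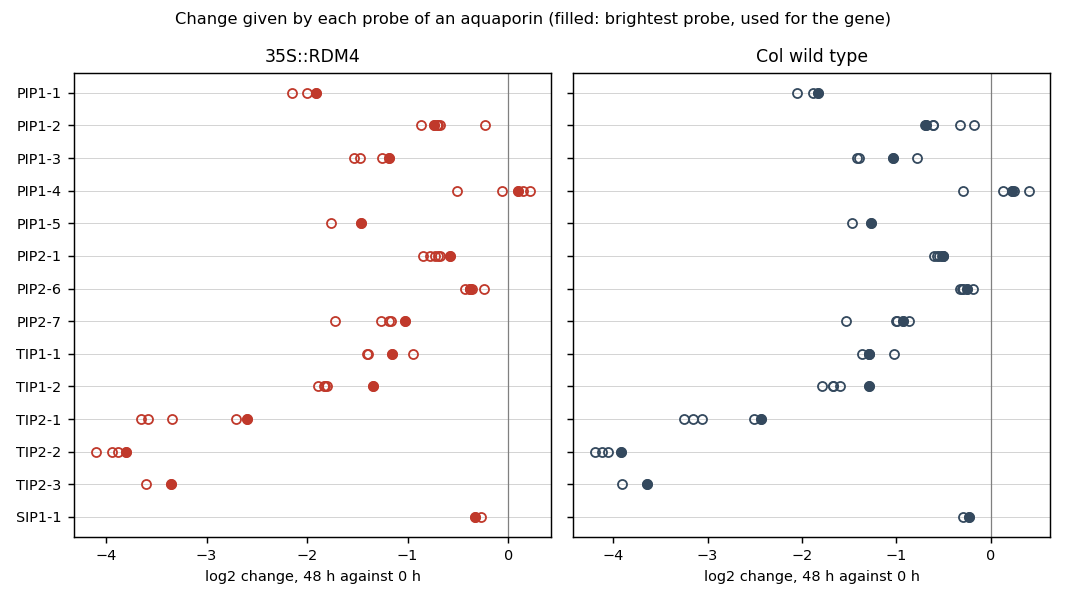
Log2 change at 48 h against 0 h given by each kept probe of the 14 aquaporins with several probes, in overexpressors (left) and wild type (right), with the probe used for the gene filled. All TIP2-2 probes lie between -4.10 and -3.80 in overexpressors and between -4.19 and -3.92 in wild type, while PIP1-4 probes lie on both sides of 0.

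A list of 17 genes held those known to traffic, modify or work beside aquaporins. At 48 h 82.4% of the 17 passed in overexpressors and 76.5% in wild type, against 79.5% and 78.7% of all genes, and at 3 h 76.5% in overexpressors and 88.2% in wild type, against 70% and 68.1%. Of the 17, 6 rose and 8 fell at 48 h in overexpressors, and 4 rose and 9 fell in wild type, with medians of -0.03 in overexpressors and -0.22 in wild type. RMA1 and RMA2, membrane-anchored ubiquitin ligases whose pepper relative acts on PIP2 channels, changed by -2.11 ± 0.05 and -2.12 ± 0.05 in overexpressors and by -2.18 ± 0.05 and -2.14 ± 0.05 in wild type. BOR2, a borate exporter, changed by 1.43 ± 0.04 in overexpressors and 1.44 ± 0.04 in wild type. At 3 h 6 rose and 7 fell in overexpressors, and 6 rose and 9 fell in wild type. XND1, a transcription factor that lowers root water transport, changed by 1.18 at 3 h in overexpressors and 1.08 in wild type. TSPO, a membrane protein that sends PIP2-7 to degradation, changed by 1.26 ± 0.07 in overexpressors and 0.76 ± 0.07 in wild type at 3 h. TSPO and BOR4 were lower in overexpressors at 0 h, with differences of -0.62 ± 0.07 and -0.38 ± 0.10, and no gene of the list passed between the genotypes at 3 h or 48 h.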

How the data were processed

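The 12 one-colour Agilent arrays of leaf RNA were read as deposited, 2 per group. Per the file headers, the authors scanned Cy3 intensity with Agilent Feature Extraction 10.7.1.1, whose processed signal is a background-corrected intensity. The deposited value table equals the median signal intensity in 11 of 12 columns. The overexpressor 48 h replicate 2 column matched its own array at 1.45% of spots, and the table served as an alternative only.

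The processed signal was taken to log2 minus each array's 75th percentile (2700 to 5646 units). Of 43603 probes, 34285 carried a locus. Probes well above background on both arrays of at least 1 group were kept (33228), spots called outliers by the scanner were left out, and the brightest kept probe stood for a gene. All 12 arrays were fitted with 6 group means in limma 3.58.1 (R 4.3.3), with 11 contrasts and Benjamini-Hochberg adjustment over 20806 genes at 0.05. A bound sets the bright group against, per array, the higher of the dim probe and the lowest signal above background. The number of arrays limits precision. Aquaporins were named with array values if among the 5 largest called changes each way in a comparison, or if near background. Alternatives were normexp correction (offset 50), quantile and median scaling, other probe filters and probe averaging, the value table, replicate, slide and scan day as blocks, and leaving out each array. The fit was tested on simulated data. The members and gene lists were chosen with earlier results of these data known. Promoter motifs, probe sequences and coordinates were not analysed here.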

Additional observations from a re-analysis of the deposited data

Results flagged for a closer look

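There were 7 aquaporin cold responses that differed between the genotypes by limma's interaction term, as overexpressor minus wild-type response on the log2 scale. At 3 h these were TIP3-1 with 0.57 (adjusted p = 0.00407), TIP2-3 with 0.42 (adjusted p = 0.0403), TIP4-1 with 0.29 (adjusted p = 0.0402) and NIP6-1 with -0.28 (adjusted p = 0.0217). At 48 h they were TIP1-3 with 4.98 (adjusted p = 0.0185), NIP3-1 with 0.24 (adjusted p = 0.0264) and NIP6-1 with -0.29 (adjusted p = 0.0187). The TIP1-3 value rests on a probe above background on 4 of the 12 arrays, so its size is not a measured fold, and it entered the test through its wild-type 0 h arrays alone.

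Another 3 aquaporins had 3 h values of opposite sign in the genotypes, with both arrays above both 0 h arrays in one genotype and below both in the other, and their interaction did not pass in limma. TIP1-3 passed at 3 h in overexpressors and not in wild type, and NIP1-2 and SIP2-1 passed in neither genotype. They were TIP1-3 with a difference of 3.53 (adjusted p = 0.0542), NIP1-2 with -0.0737 (adjusted p = 0.335) and SIP2-1 with 0.12 (adjusted p = 0.26).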

How the results depend on the processing

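Of 176 called aquaporin results, 118 kept their direction and their side of the threshold in every alternative, 25 of 31 for wild type at 48 h and 22 of 30 for overexpressors at 48 h. Counts of called aquaporins in the cold comparisons stayed within 1.5 times. The genotype counts did not. At 0 h the count was 7, and 11 with the replicate block, 0 with slide as a block (9 at an unadjusted p below 0.05) and 3 to 7 with an array left out. At 3 h it was 2, and 0 after normexp correction, without the probe filter, with the value table and with slide as a block (6, 5, 6 and 6 at an unadjusted p below 0.05), and 0 to 2 with an array left out. At 48 h it was 1, and 2 under quantile scaling, with probe averaging and with slide as a block, and 1 to 3 with an array left out. Interactions at 3 h numbered 4, and 0 after normexp (7 unadjusted) and with slide as a block (13 unadjusted), 2 under median scaling, 2 without the probe filter, 1 with the value table and 1 to 7 with an array left out. At 48 h they numbered 3, and 0 after normexp, with the value table and with slide as a block (8, 7 and 8 unadjusted), 1 under quantile scaling, 6 with the replicate block, 5 with scan day as a block and 0 to 3 with an array left out. Same-numbered replicates deviated together at r of 0.167 to 0.286 within wild type, where each number shares a slide and a scan day, and at -0.054 to 0.136 where overexpressors were involved, so the numbers were not taken as pairs. With the replicate block the wild-type counts were 21 at 3 h, 29 at 48 h and 28 for 48 h against 3 h, and 20, 31 and 26 without it. The values that reversed after normexp correction were NIP3-1 at 3 h in overexpressors (0.00298, adjusted p = 0.994 in limma) and NIP2-1 between genotypes at 0 h (-0.13, adjusted p = 0.894 in limma). Over all genes, the genotype calls at 0, 3 and 48 h numbered 2683, 1028 and 777, and 1244, 17 and 171 after normexp, 1425, 52 and 314 with the value table, 280 at 3 h without the filter, and 79, 28 and 257 with slide as a block. All-gene interactions at 3 and 48 h numbered 1531 and 1133, and 340 and 397 after normexp, 472 and 445 with the value table, 875 at 3 h without the filter, and 94 and 257 with slide as a block. For the unadjusted counts of aquaporins, no share of all genes is given. The causes were not tested. Dim members (TIP1-3, TIP3-2, NIP2-1 and NIP4-2) are limited by signal over background.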
